A study of Mus musculus with 14 samples.

Results

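The bins described here were methylated in XEN cells, a culture of extraembryonic endoderm type, and unmethylated in cells treated with retinoic acid (RA). They are 200-bp bins of the mouse genome that met a rule on 2 cell states. The rule asked for at least 60 CpG counts summed over the 4 XEN libraries with at least 50% of them methylated, and for at least 30 CpG counts with under 20% methylated in the H3K4me1 library of RA-treated cells. Of 7282466 bins with any count, 242610 met both count minimums and are called eligible, and 1063 of these, or 0.438%, met the rule and are called members. The number rests on the deepest XEN libraries, since it was 560 without replicate 1 and 435 without replicate 2 of those labelled H3K27ac. The 1063 made up 2.28% of the 46560 eligible bins under 20% after RA and 0.682% of the 155958 eligible bins with 50% or more in XEN. The bins with the opposite pattern, under 20% in XEN and 50% or more after RA, numbered 54. Another 30508 eligible bins were under 20% in both states and 122780 had 50% or more in both.

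The measurement was ChIP-BS-seq, in which DNA bound by a marked histone is precipitated and treated with bisulfite, so that the share of methylated CpGs (5mC) is read in the DNA that carries the mark. All cells came from R1, a mouse embryonic stem cell (ESC) line. ESCs were grown for 2 days without 2i, the inhibitors of MEK and GSK3. RA-treated cells had 4 days of 1 µM retinoic acid without LIF, and XEN cells had 9 days of retinoic acid at 0.1 µM together with Activin A at 10 ng/mL. One file of counts each for H3K4me1 and H3K27ac was analysed for ESCs and for RA-treated cells, and 2 replicate libraries per mark label for XEN. Both differentiations were made from 1 line, their cultures were not sorted, and the RA treatment is known to give a mixture of cell states, epiblast-like and extraembryonic endoderm cells among them. A percentage is therefore an average over cells, and a fully methylated minority cannot be told apart from partial methylation in every cell. Gene expression markers of XEN identity were not analysed here, so the name XEN rests on the labels.

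DNA methylation is placed on CpGs by DNA methyltransferases and is kept away from active regulatory DNA, where bound transcription factors and active histone marks go with low 5mC. H3K4me1 marks enhancers and the edges of promoters, and H3K27ac marks those that are active. Extraembryonic endoderm, which contributes to the yolk sac, separates early from the epiblast, the source of the embryo proper.

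Each library of ESCs or RA-treated cells held 32305709 to 58803653 CpG counts, and each XEN library 12147115 to 31345707. Over all bins, 38.6% of H3K4me1 counts and 33.0% of H3K27ac counts were methylated in ESCs, against 54.8% and 38.7% after RA. In XEN it was 61.5% in both libraries labelled H3K27ac and 47.9 and 49.2% in those labelled H3K4me1. By label, the order of the marks in XEN was thus the reverse of that in ESCs and after RA. The marks in the names of the XEN files are swapped against the labels, so XEN libraries are named here by their label only. Which mark each label holds was not tested. XEN libraries were deposited apart from the others, list only bins with at least 4 counts, and their processing notes name Bowtie2 beside Bowtie. Cell state and these differences in preparation cannot be told apart.

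The RA value lay within 5 points of its threshold in most members, and the XEN value in fewer. These values chose the bins and are given as a description, with no test. Pooled XEN 5mC had a median of 55.3%, with quartiles of 52.3 and 60.2% and a highest value of 91.8%. It was under 55% in 506 members, or 47.6%, and 70% or more in 52. The H3K4me1 library of RA-treated cells had a median of 16.7%, between 2.38 and 19.9%, with 703 members at 15% or more and 9 under 5%. XEN exceeded RA by a median of 40.3 percentage points, from 30.3 to 73.8. A member held a median of 93 XEN counts and 56 RA counts. Exact 95% intervals of a 5mC level, here and below, cover counting error only, and CpGs of 1 read and PCR copies are not independent. Intervals of a share or a median over bins treat the bins as independent, which neighbouring bins are not. Neither kind covers variation between libraries. The XEN interval lay wholly above 50% in 275 members, the RA interval wholly under 20% in 81, and both in 16.

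Bins just inside and just outside a threshold had these ESC values, given with no test. Of 238 members with 50 to 52% in XEN, the 198 covered in the H3K4me1 library of ESCs had a median of 5.13% there. Of 242 bins with 48 to 50% in XEN that otherwise met the rule, the 203 covered had 5.45%. For the RA threshold, 267 covered of 331 members at 18 to 20% had an ESC median of 6.06%, and 391 covered of 469 bins at 20 to 22% had 7.44%. Among the bins nearest to the XEN threshold, chr18:53152801-53153000 was a member with 50.0% of 206 XEN counts methylated, and chr8:28169201-28169400 missed with 49.9% of 453 counts. Nearest to the RA threshold, chr2:168667601-168667800 was a member with 19.9% of 266 counts, and chr14:20577201-20577400 missed with 20.0% of 175.

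Because the rule pooled the 4 XEN libraries, each replicate could be read apart from the one that chose. When replicate 1 of both labels chose the bins, with 30 counts as the minimum for the pair, 1169 bins had 57.3% 5mC in the libraries that chose them. In the replicate 2 libraries the same bins had 49.8% (95% interval 49.4 to 50.1%). Of the 1057 with at least 30 counts there, 520, or 49.2%, had 50% or more, and 8 were under 20%. Choosing 1495 bins on replicate 2 gave 57.1% in the libraries used and 50.4% in replicate 1. The value in the libraries that did not choose the bins was thus lower by 7.50 points in the first reading and 6.73 in the second, and below the 54.7% of all eligible bins. Against the H3K27ac library of RA-treated cells, which no rule used, the unused XEN replicate was higher by a median of 33.8 points in the first reading and 34.4 in the second. Over all eligible bins, pooled 5mC was 54.7% in XEN and 31.6% in H3K27ac after RA. The bins were still chosen for under 20% in H3K4me1 after RA. Eligible bins under 20% there had a median of 4.17% in H3K27ac after RA, against 27.9% of all eligible bins. Part of the difference to XEN is therefore built in by the choice.

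Pooled over the members, 5mC was 57.5 and 57.4% in the 2 libraries labelled H3K27ac and 54.1 and 54.2% in the 2 labelled H3K4me1. The labelled H3K4me1 libraries were lower by 3.29 points, a description with no test, since the rule chose the bins on these values and mostly on counts of the libraries labelled H3K27ac. Over all eligible bins the libraries labelled H3K27ac had 57.8 and 57.5%, within 1 point of the members, while those labelled H3K4me1 had 45.4 and 46.3%, below the members.

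Most XEN counts of the members came from the libraries labelled H3K27ac. They supplied 83.3% of the 121400 counts and the libraries labelled H3K4me1 16.7%, although the latter hold 34.0% of all XEN counts. The median member had 35 and 44 counts in the libraries labelled H3K27ac and 7 and 8 in those labelled H3K4me1. Of the members, 275 were not listed in replicate 1 of the latter and 199 not in replicate 2. The share from the libraries labelled H3K4me1 was 44.5% in bins unmethylated in both states, 25.1% over all eligible bins and 21.9% in bins methylated in both. In 65 of 1063 members it exceeded the 34.0% of the libraries as a whole. The precipitates labelled H3K4me1 thus covered the members thinly, and the XEN state of a single member rests mainly on the other label.

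**Figure D1:**
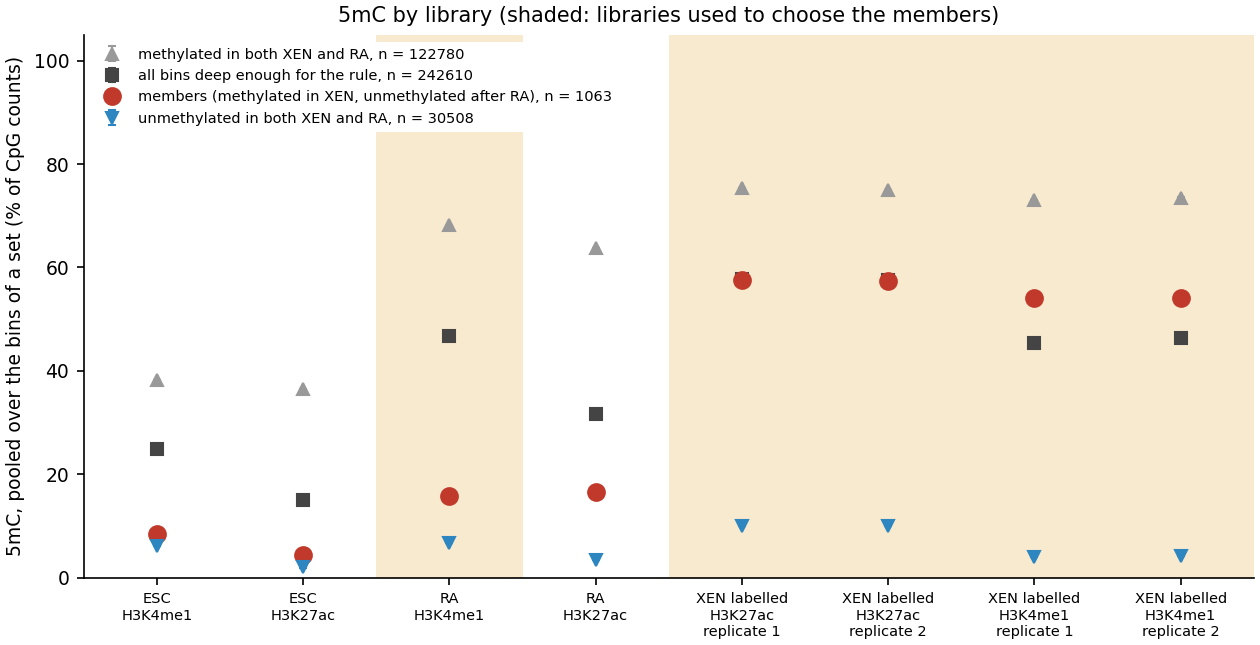
Pooled 5mC (y axis, % of CpG counts) in each of the 8 libraries (x axis) over 1063 members, all 242610 eligible bins and the bins methylated or unmethylated in both states; error bars are exact 95% intervals and are mostly smaller than the symbols. In the 2 ESC libraries, at 8.41 and 4.34%, the members sit near the bins unmethylated in both, and in XEN, at 54.1 to 57.5%, between these and the bins methylated in both.

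The next question was in what state the members stood before differentiation. They were nearly unmethylated in ESCs. Of the 1063 members, 880 had at least 30 counts in the H3K4me1 library of ESCs, which the rule did not use. Their median 5mC was 5.0%, with quartiles of 2.13 and 10.8% and a range from 0 to 73.0%. Under 20% were 792 of the 880, or 90.0% (95% interval 87.8 to 91.9%), 77 lay between 20 and 50%, and 11 had 50% or more. In the H3K27ac library of ESCs, 400 members had 30 counts, and their median was 1.75%.

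In this the members resembled the bins unmethylated after RA rather than those methylated in XEN. Over all eligible bins the ESC median in H3K4me1 was 19.2%, and 50.9% of bins were under 20%. Eligible bins under 20% after RA at any XEN level had a median of 2.70%, with 90.6% under 20%. Those with 50% or more in XEN at any RA level had a median of 30.6%, with 32.0% under 20%. Bins unmethylated in both states stood at 2.02% and 91.4%, and bins methylated in both at 36.7% and 20.9%. The members' share under 20%, at 90.0%, was thus near the 90.6% among RA-unmethylated bins. Their median of 5.0% was above the 2.70% of those bins. Several of these sets contain the members, and no test was made between them.

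**Figure D2:**
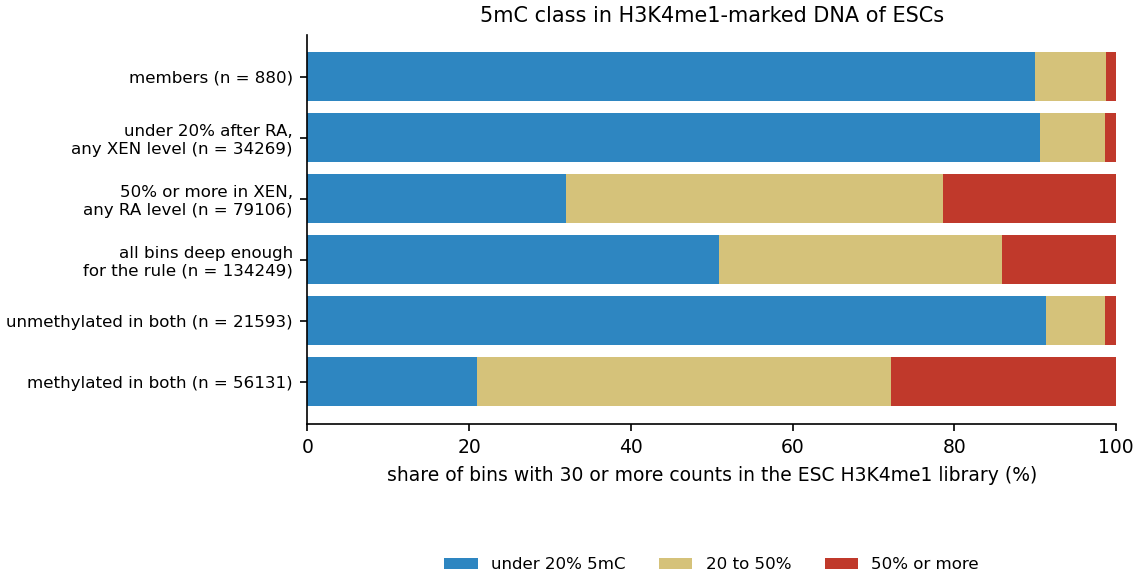
Share of bins (x axis, %) by 5mC class in the H3K4me1 library of ESCs, for the members and 5 comparison sets (y axis), over bins with at least 30 counts there. The members' bar, with 90.0% under 20%, is like that of bins unmethylated after RA at any XEN level, at 90.6%, and unlike that of bins methylated in XEN at any RA level, at 32.0%.

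XEN values lay above ESC values in nearly all members covered in ESCs. XEN exceeded the H3K4me1 library of ESCs in 872 of the 880 members, by a median of 50.0 points, and by more than 20 points in 857. Of the 134249 eligible bins covered in ESCs, 121880 were higher in XEN and 84331 by more than 20 points. The H3K4me1 library after RA lay above that of ESCs by a median of 9.62 points, higher in 745 members and lower in 134, where 113933 of these eligible bins were higher. XEN and RA values were both used by the rule, so these differences are descriptions. Over all eligible bins covered in ESCs, XEN minus ESC had a median of 28.3 points and RA minus ESC 16.7.

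The 11 members with 50% or more in ESCs are the exceptions. All were under 20% in H3K4me1 after RA by the rule. Among members with at least 60 counts in the H3K4me1 library of ESCs, the highest was chr10:80641401-80641600. It had 57.6% of 139 counts in ESCs, 12.9% of 70 counts in H3K4me1 after RA, and in XEN 70.7 and 72.8% in the libraries labelled H3K27ac and 86.7 and 87.8% in those labelled H3K4me1. XEN values by library are given in this order below. In H3K27ac this bin had 46.5% of 99 counts in ESCs and 53.7% of 121 after RA, so that after RA the 2 marks lay 40.9 points apart, and this was the only member with 50% or more in the H3K27ac library of RA-treated cells. The next were chr5:136538401-136538600, with 56.7% of 67 counts in ESCs, 19.6% in H3K4me1 after RA and 34.0% of 47 counts in H3K27ac after RA, and chr6:120602601-120602800. The latter had 52.5% of 99 counts in ESCs, 16.2% of 130 in H3K4me1 after RA and 61.0% of 277 in XEN. In H3K27ac after RA it had 12.2% of 90 counts, below its level in ESCs, while H3K27ac in ESCs gave only 7 counts.

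At the other end, 3 members had no methylated count among more than 100 in the H3K4me1 library of ESCs. The bin chr6:21935801-21936000 had 0 of 126 counts, chr15:61820801-61821000 0 of 115 and chr3:137526401-137526600 0 of 107, which by the exact interval allow up to 2.89, 3.16 and 3.39%. Their XEN values were 54.7, 61.5 and 58.2%, and their H3K4me1 values after RA 16.5, 18.2 and 19.7%. In the first of these, XEN rests on the libraries labelled H3K27ac, with 63.9% of 61 counts, since those labelled H3K4me1 had 14.3% of 14.

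H3K27ac after RA was a readout that the rule did not use. In it 403 of the 1063 members had at least 30 counts, and their median 5mC was 14.3% (95% interval of the median 13.3 to 15.4%), with quartiles of 9.44 and 20.3%. Under 20% were 298, or 73.9%, while 104 lay between 20 and 50% and 1 above. The median was 27.9% over all eligible bins with 30 counts, 2.74% in bins unmethylated in both states, 4.17% in bins under 20% in H3K4me1 after RA at any XEN level and 63.2% in bins methylated in both. The bins under 20% after RA at any XEN level also had a lower median in the H3K4me1 library that the rule used, 8.33% against 16.7% in the members. Just inside the XEN threshold, at 50 to 52%, the H3K27ac median was 13.6% over 109 members, and just outside, at 48 to 50%, it was 12.5% over 106 bins. At the RA threshold it was 18.4% over 126 members at 18 to 20% in H3K4me1 and 18.5% over 162 bins at 20 to 22%.

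The level in H3K27ac after RA was higher in the classes of members with more 5mC in ESCs. The 431 members under 5% in the H3K4me1 library of ESCs had a median of 12.6% in H3K27ac after RA, over the 172 with 30 counts. Those with 5 to 20% in ESCs had 14.3% over 126 bins, those with 20 to 50% had 18.8% over 37, and those with 50% or more had 24.2% over 9. These medians are a description, with no test. The medians that the rule bounded hardly differed between these classes, lying between 54.8 and 55.7% in XEN and between 16.4 and 17.0% in H3K4me1 after RA.

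Of the 238 members that could be tested, 84 were called higher in 5mC in the H3K27ac library after RA than in that of ESCs. Their share was 35.3%, against 29.3% of the eligible bins tested. With 1 library per state, Fisher's exact test per bin with Benjamini-Hochberg adjustment over all 81592 bins with 30 counts in both H3K27ac libraries compared the 2 libraries, not the cell states. The test takes CpGs of 1 read and PCR copies as independent, which they are not. Of the 238, 84, or 35.3%, had higher 5mC after RA at an adjusted p under 0.05, where 13.7% of all bins tested were called higher. None was called lower, and none had an unadjusted p under 0.05 in that direction, where 1.07% of all bins tested and 0.755% of the eligible bins tested were called lower. The members' median of 1.75% in H3K27ac of ESCs left little room for a lower value. The change over the 238 had a median of 9.84 points, with quartiles of 4.78 and 16.7, against 5.19 points over the eligible bins tested and 0.72 over all bins tested. It was above 0 in 222, or 93.3%, against 80.5% of the eligible bins and 60.3% of all bins tested, and below 0 in 14. The share called was 29.3% among the eligible bins tested, 4.51% among bins unmethylated in both states and 72.5% among bins methylated in both. The bins tested are those deep in H3K27ac in both states, and 825 members were not tested.

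The called members had changes between 6.78 and 40.1 points, with a median of 18.3, against a median of 30.6 in the called eligible bins. The largest was at chr4:116357601-116357800, where 2.47% of 81 counts were methylated in ESCs and 42.6% of 47 after RA (adjusted p = 4.00e-07 by Fisher's exact test). The next were chr17:29398601-29398800, from 1.72% of 58 counts to 38.6% of 44 (adjusted p = 2.00e-05 by the same exact test), and chr18:65678801-65679000, from 0 of 54 counts, which allow up to 6.60%, to 36.6% of 41 (exact test, adjusted p = 1.34e-05). In these bins H3K4me1 after RA had 19.4% of 36, 14.8% of 108 and 6.45% of 31 counts. XEN had 51.7, 70.6 and 64.8%.

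**Figure D3:**
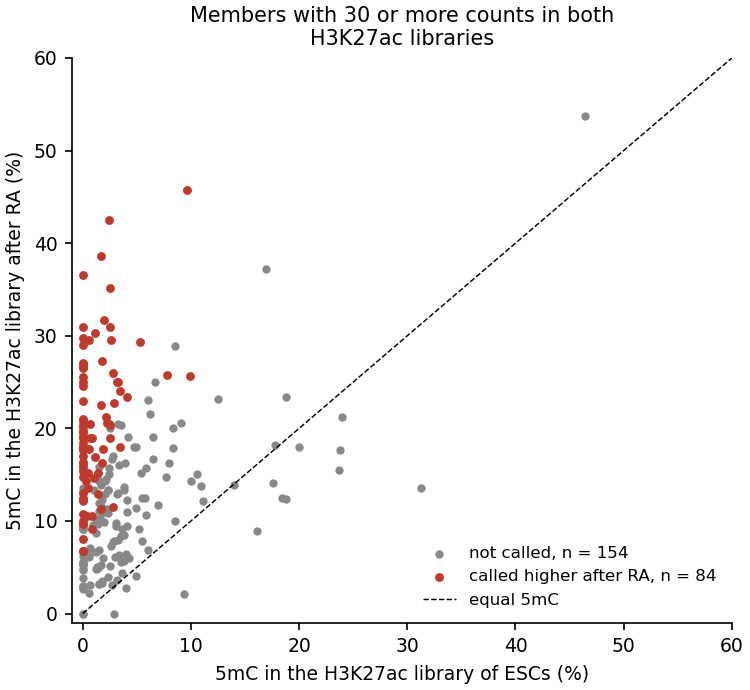
5mC in the H3K27ac library of ESCs (x axis, %) and of RA-treated cells (y axis, %) for the 238 members with at least 30 counts in both; each point is a bin, red where Fisher's exact test with adjustment over all bins called it higher after RA. Of the points, 222 lie above the line of equal 5mC and 84 are red, and none is called lower.

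The ratio of H3K27ac counts after RA to those in ESCs had a log2 median near 0 in the members, with many members on either side. Over all eligible bins the median was higher. CpG counts scaled to library totals, as log2 of RA over ESC with a pseudocount of 1, had a median of 0.11 in the members, with quartiles of -0.84 and 1.03. The 95% interval of this median, -0.01 to 0.22, is over bins of 1 library per state and covers no variation between libraries. The ratio was above 0 in 562 members, above 1 in 281 and below -1 in 233. Its median was 1.09 over all eligible bins, 0.62 in bins unmethylated in both states and 1.23 in bins methylated in both. The count minimum in H3K4me1 after RA favours bins that hold counts after RA, in the members as in the comparison sets. Scaled to the counts outside peaks instead, the members' median was 0.25 and that of eligible bins 1.24.

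In the deposited peak lists 1038 members, or 97.6%, overlapped an H3K4me1 peak of RA-treated cells, against 99.1% of eligible bins, and 96.0% one of ESCs, against 76.5%. An H3K27ac peak was overlapped by 899 members, or 84.6%, after RA and by 834, or 78.5%, in ESCs, against 90.5% and 54.9% of eligible bins and 89.3% and 76.2% of bins under 20% after RA at any XEN level. The members in H3K27ac peaks of both states numbered 749, 150 gained a peak after RA, 85 lost one and 79 were in none. A gain was thus found in 14.1% of members, 38.4% of eligible bins and 17.9% of bins under 20% after RA at any XEN level, and a loss in 8.00, 2.72 and 4.78%. Members that gained a peak had medians of 5 H3K27ac counts in ESCs and 23 after RA, and those that lost one 31 and 9. Median ESC 5mC was 8.45% in the gained, 3.77% in the lost and 4.71% in the shared, while median XEN 5mC lay between 54.9 and 56.5% in all 4 classes. No peaks for XEN were used.

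The 5 members with the most H3K27ac counts after RA held 30 to 219 counts in ESCs, against a median of 22 over the members. At chr6:145136001-145136200 the counts were 49 in ESCs and 276 after RA, with 4.08 and 9.42% methylated. The 84 XEN counts of this bin were 50.0% methylated, at 43.2, 55.6 and 54.5% in the 3 libraries that list it. At chr4:88927801-88928000 the counts were 30 and 221, with 3.33 and 6.33% methylated. There the XEN labels differed, with 67.4 and 61.8% in the libraries labelled H3K27ac and 20.0 and 21.4% in those labelled H3K4me1. The bin chr16:85080201-85080400 held 43 counts and 203, and its XEN libraries had 48.1, 60.4, 52.3 and 64.3%. The bin chr17:66713401-66713600 held 219 counts in ESCs and 183 after RA, with 1.37 and 4.92% methylated. The last of the 5, chr8:28169401-28169600, held 80 and 176 counts and was among the 14 with lower 5mC after RA, from 23.8 to 17.6% (adjusted p = 0.833 by Fisher's exact test). None of these 5 changes in 5mC passed the test.

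Most members stood alone. With members at most 1 kb apart joined, they formed 985 regions, of which 918 held 1 member, 59 held 2, 5 held 3 and 3 held 4. Another member within 1 kb was found for 145 members, or 13.6% (95% interval 11.6 to 15.9%), and 102 had one next to them. Within 5 kb it was 17.2% and within 100 kb 39.1%, and the median distance to the nearest other member was 185600 bp. Members were more frequent near each other than over all eligible bins. Of the eligible bins within 1 kb of a member 4.53% were members, against 0.438% of all eligible bins. Neighbouring bins share reads, peaks and CpG density, and the part of these in the clustering was not tested.

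The bins beside a member met the RA threshold more often than eligible bins did, and the XEN threshold less often. The 3053 eligible bins within 1 kb of a member that were not members had a median of 52.8% in XEN and 29.2% in H3K4me1 after RA. Of these, 52.7% met the XEN threshold and 35.3% the RA threshold, against 64.3% and 19.2% of all eligible bins. No test was made, and bins that met both are left out by definition.

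Across the genome the members were spread over 627 windows of 1 Mb. The most in a window was 10, reached at chr10 between 80 and 81 Mb, among 371 eligible bins, and at chr17 between 35 and 36 Mb, among 376. The neighbouring window of chr17, between 34 and 35 Mb, held 7 among 174. By chromosome, the share of eligible bins that were members ran from 0.262% on chromosome 3 to 0.616% on chromosome 17 among the autosomes. On X it was 0.681% (95% interval 0.363 to 1.16%), from 13 members.

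The 10 regions with the most members were chosen by number of members and then by XEN counts. The 3 with 4 members differed in how complete they were. At chr15:103045601-103046600 all 4 eligible bins were members. Over them 1.54% of 65 H3K4me1 counts and 0 of 155 H3K27ac counts, which allow up to 2.35%, were methylated in ESCs. After RA these values were 15.1% of 192 and 11.9% of 201. The 4 XEN libraries had 64.9, 57.3, 48 and 50%, and both bins that could be tested in H3K27ac were called higher after RA. Of the 10 regions, 4 had tested bins and none called, 3 tested at chr5:28725001-28726800 and 2 each at chr17:66712201-66713800, chr17:45707601-45708600 and chr17:35380601-35381200. In 3 others 1 bin was called, of 3, 3 and 1 tested, and 2 had none tested. At chr11:69211601-69213400, 4 of 8 eligible bins were members, with 3.36% 5mC in ESCs, 14.3% after RA in H3K4me1 and 45.2, 61.4, 60.5 and 54.9% in the XEN libraries. At chr5:28725001-28726800 it was 4 of 6, with 10.3% in ESCs, 16% after RA and 50.9, 55, 60 and 56.2% in XEN.

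An unbroken row of 3 members made up chr17:35380601-35381200 and chr5:65038601-65039200. The first had 3.53% 5mC in H3K4me1 of ESCs, 12.6% after RA and 59.0% of 400 XEN counts. The second had 0.68% of 147 counts in ESCs, 7.18% after RA and 5.37% in H3K27ac after RA. In XEN it had 57.6 and 53.9% in the libraries labelled H3K27ac but 31.8% of 22 and 27.9% of 43 counts in those labelled H3K4me1. Regions at chr17:66712201-66713800, chr17:45707601-45708600 and chr11:114691201-114692000 also held 3 members each, with ESC values between 1.21 and 3.12% in H3K4me1 and XEN values between 52.4 and 58.5%. The deepest pairs were chr19:23227401-23227800, with 17.2% after RA and 52.3% of 520 XEN counts, and chr11:120470001-120470400, with 14.6% after RA and 59.6% of 505. In the first pair the libraries labelled H3K27ac had 53.3 and 59.3%, and those labelled H3K4me1 34.8% of 46 and 39.4% of 66 counts. In the latter pair 491 of the 505 counts came from the libraries labelled H3K27ac, and neither bin was in an H3K27ac peak after RA, although both were in ESCs.

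Away from the members, 5mC in H3K4me1 was higher with distance both after RA and in ESCs. With 1 bin at the centre of each of the 985 regions and other members left out, 5mC in H3K4me1 after RA was 15.9% at the centre, 27.7% at 200 bp, 36.1% between 400 and 1000 bp, 43.3% between 1200 and 3000 bp and 48.6% between 3200 and 5000 bp. The values at the centre are those of the rule. Around the bins unmethylated in both states the mean over distances was 6.75% at the centre, 15.0% at 200 bp, 31.7% between 400 and 1000 bp and 50.0% in the outermost bins. In ESCs the same library type had 8.70% at the centre, 11.2% at 200 bp, 17.1% between 400 and 1000 bp and 28.7% in the outermost bins. Around the bins unmethylated in both it was 6.13, 8.46, 16 and 30.5% at these distances. In these values the bins next to the members were higher than those next to the bins unmethylated in both, more so after RA. The profiles were not built alike. The centre values of the bins unmethylated in both are those of all 30508 such bins, not of 1 bin per region. A bin under 20% in XEN lay within 200 bp of 66.5% of them, against 7.43% of members. The part of this in the difference was not tested.

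In XEN the profile around the members differed between the labels. The value at the centre was chosen by the rule, and in replicates not used to choose, such bins read 49.8 and 50.4%, near the 50.3% found at 200 bp. The libraries labelled H3K4me1 had 54.1% at the centre, 27.9% between 400 and 1000 bp, 18.2% between 1200 and 3000 bp and 40.2% beyond. Those labelled H3K27ac had 57.4% at the centre, 51.2% at 200 bp and between 400 and 1000 bp, a value between these from 1200 to 3000 bp and 59.6% in the outermost bins, and at single distances their lowest value was 48.1%, at 400 bp to one side. Around the bins unmethylated in both, pooled XEN 5mC was lowest at the centre, at 7.38%, and 46.1% between 1200 and 3000 bp. The mean number of counts per region differed between the labels. In the libraries labelled H3K4me1 it was 19.3 at the centre, 12.8 at 200 bp and 20.4 between 1200 and 3000 bp, while in those labelled H3K27ac it fell from 96.3 at the centre to 24.7 between 1200 and 3000 bp. Pooled over the 4 libraries, 5mC was 56.8% at the centre, 44.8% between 400 and 1000 bp, 38.4% between 1200 and 3000 bp and 53.3% in the outermost bins, so the pooled values mix the labels in shares that change with distance. In H3K27ac after RA, 5mC was 16.9% at the centre, 19.2% at 200 bp and 13.3% between 1200 and 3000 bp, and between 3200 and 5000 bp it was 26.1%. Mean counts in that library were 31.6 at the centre, 22.2 at 200 bp and 22.8 between 1200 and 3000 bp. In H3K4me1 after RA they were 63.8, 42.9 and 18.2 at these distances. Which mark each XEN label holds was not tested.

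**Figure D4:**
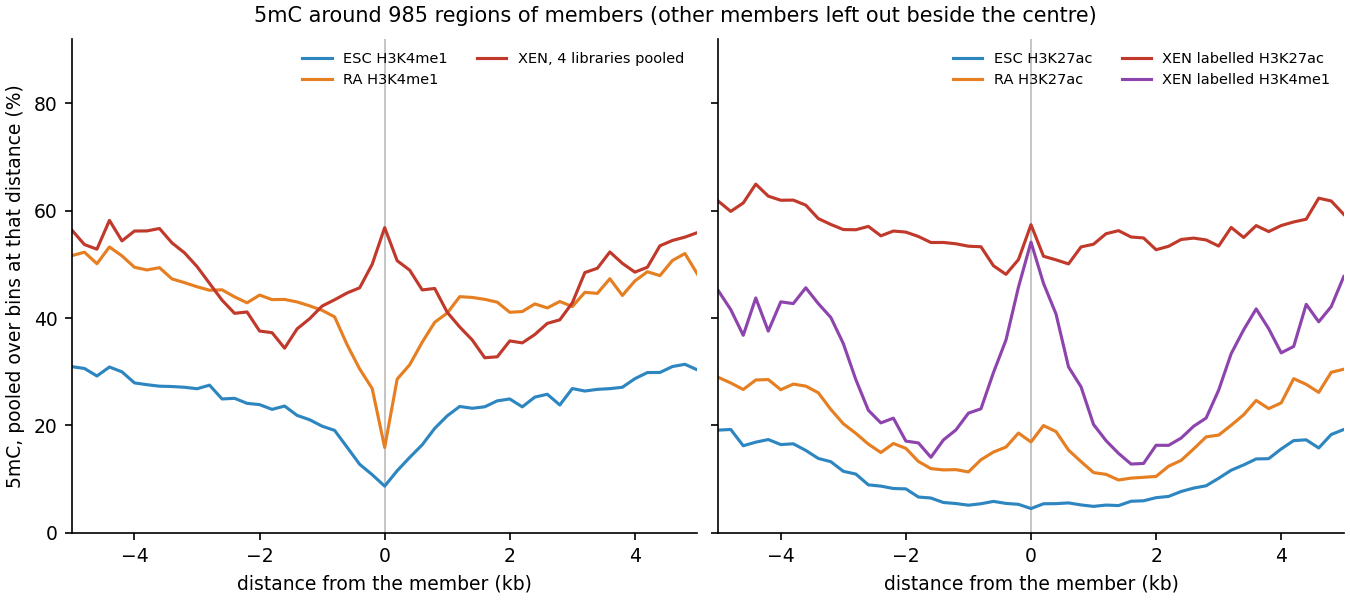
Pooled 5mC (y axis, %) by distance from the member (x axis, kb) around 985 regions; the left panel has H3K4me1 of ESCs and of RA-treated cells and the 4 XEN libraries pooled, the right panel H3K27ac of ESCs and of RA-treated cells and the XEN libraries by label. At the centre, which the rule chose, the RA curve of H3K4me1 dips to 15.9% and XEN has 56.8%, and the XEN libraries labelled H3K4me1 have dips on both sides, with 18.2% between 1200 and 3000 bp.

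Counted by member, the share with an unmethylated XEN bin nearby lay between those of the bins unmethylated after RA and of the bins methylated in XEN. A bin with at least 60 XEN counts and under 20% 5mC lay next to 79 members, or 7.43%, against 15.3% of eligible bins. Within 1 kb it was 446 members, or 42.0% (95% interval 39.0 to 45.0%), against 34.6% of eligible bins, and within 3 kb 638 members against 47.7% of eligible bins. For all eligible bins with 50% or more in XEN the shares were 19.7% within 1 kb and 36.2% within 3 kb, and for those under 20% after RA at any XEN level 76.6% and 81.6%. A bin under 20% in H3K27ac after RA lay within 1 kb of 63.7% of members, 35.5% of eligible bins and 77.5% of bins under 20% after RA at any XEN level, and a bin of 50% or more in H3K4me1 after RA within 1 kb of 51.6, 76.0 and 49.4%. The sets under 20% after RA or methylated in XEN are defined by values close to those counted, so these shares are a description, with no test. Without an annotation for mm9, the build named in the labels, which of these neighbours are promoters, and which genes lie there, was not analysed here.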

How the data were processed

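ChIP-BS-seq libraries of H3K4me1 and H3K27ac from ESCs, RA-treated cells and XEN cells were analysed, 8 in all. The authors used Bismark with Bowtie for alignment to build mm9, as the processing notes name it, removed reads whose CpGs had mixed states, and deposited, for each 200-bp bin, raw counts of unmethylated and of methylated CpGs. Which column is methylated was read from the mitochondrial genome, where it is rare, and differs between XEN and the other files. The authors called HOMER peaks with local and clonal filtering off, and the deposited score per peak was not used. Whether a file of ESCs or RA-treated cells holds 1 repeat or pooled repeats was not established.

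The 5mC of a bin is its methylated share of CpG counts, with at least 30 counts per bin and library unless stated, and a bin was in a peak at an overlap of 1 bp. Intervals are Clopper-Pearson or, for medians, binomial. The depth per library is given in the results. The per-bin exact test was tested on simulated data of the H3K27ac comparison, where 182 of 200 bins changed by 40 points were called over 81592 bins, and 0 unchanged ones. The simulated counts were independent, so they give no error rate for CpGs of 1 read or PCR copies. Called members changed by a median of 18.3 and at most 40.1 points, and recovery of changes under 40 points was not measured. The exact permutation test planned for the XEN labels was made, but is not used as a result. The p-values of the per-bin test measure counting error between 2 libraries, 1 per state. They do not measure the spread between libraries of a state, and the differences may be technical.

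Named are the 10 regions with the most members, the 5 members with the most H3K27ac counts after RA, the 3 with the highest and the 3 with the lowest ESC 5mC in H3K4me1 among members with at least 60 counts there, up to 3 called in each direction, of which none was lower, and bins next to each threshold, of which 1 on each side is printed. The members, sets and rules were chosen with earlier results of these data known. Alternatives were other minimums and thresholds, leaving out each XEN library, a replicate block, other distances and scalings. Input, H3K36me and single-cell samples, genes and sequences were not analysed here. Software was scipy 1.17.1 and numba 0.67.0 with numpy 2.4.6, pandas 2.3.3 and matplotlib 3.10.9, under Python 3.11.15.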

Additional observations from a re-analysis of the deposited data

How the results depend on the processing

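The number of members depended on the settings far more than their ESC state. It was 1891 and 473 with minimums of 30 and 100 XEN counts, 471 with 60 RA counts, 274 with 60% or more in XEN and 99 with under 10% after RA. Without one XEN library at a time it lay between 435 and 1058, and it was 560 without replicate 1 and 435 without replicate 2 of those labelled H3K27ac. In alternatives chosen after seeing the data it was 1992 with only the libraries labelled H3K27ac and 204 with only those labelled H3K4me1. The latter gave 79.9% under 20% 5mC in ESCs and a median of 15.8% in H3K27ac after RA. In these alternatives the part of the label was not separated from that of the count minimum. The ESC share otherwise moved past its interval to 87.4% with 60 RA counts, 96.3% with under 10% after RA and 92.6% with 60 ESC counts, and without one XEN library it was 87.4 to 90.8%. The H3K27ac median was 9.25% with under 10% after RA, 16.1% and 12.9% with minimums of 10 and 60 counts, and 14.1 to 15.0% without one XEN library. With 20 and 60 counts the members called higher in H3K27ac were 113 of 402 and 31 of 63, and those called lower 1 and 0. The share of eligible bins called at these minimums is not given here. These counts therefore do not show whether members differ from eligible bins. The replicate numbers did not pair the XEN libraries (the difference in scaled counts between replicates correlated at r = -0.01 between labels over eligible bins). The permutation tests of the label difference of -3.29 points, with and without a replicate block, used values the rule chose on. With 2 libraries per label they could not reach a small p-value, so none is given and nothing is said about the labels. Choosing on replicate 2 gave 50.4%, a distance of 5 kb gave 17.2% with a neighbour, and scaling outside peaks a ratio of 0.25. Of the 60 recomputed values the other 37 stayed within 1.5 times the main value for counts, such as 1260 members with 20 RA counts, and within the interval or spread of the main value otherwise. The cause of these shifts was not tested, and depth in the libraries labelled H3K4me1, at a median of 7 and 8 counts per member, limits any statement by label.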

Other observations

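The 54 bins with the opposite pattern, under 20% in XEN and 50% or more in H3K4me1 after RA, are described here by readouts that the rule did not use. In the H3K4me1 library of ESCs 17 of them had 30 counts, with a median of 33.0% 5mC, where the bins methylated in both states had 36.7% and the members 5.0%. In H3K27ac after RA 32 had 30 counts, with a median of 27.2% and a highest value of 71.9%. Their log2 ratio of H3K27ac counts of RA over ESC had a median of 2.22, and 40 of 54 were above 1, against 128875 of the 242610 eligible bins. These values are a description of few bins, with no test.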
